A study of Caenorhabditis elegans with 2 samples.

Results

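ChIP-seq, which sequences the DNA recovered with a precipitated protein, was done on whole Caenorhabditis elegans at the L2 larval stage to map LIN-39, the Hox protein of the mid-body, through an eGFP tag. The data described here are those at the genes for the proteins of the mitochondrial ribosome. The members were chosen by name: every protein-coding gene whose symbol starts with mrpl- or mrps- and a number. There were 70 of them among 19973 protein-coding genes of the nuclear chromosomes, 29 with mrps symbols and 41 with mrpl symbols. Genes are called small-subunit (mrps) or large-subunit (mrpl) here by symbol alone, and the place of each protein was not checked. The naming rule leaves out genes of this ribosome with other symbols, such as dap-3.

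Both libraries belonged to 1 group, as biological replicates 1 and 2 of pooled male and female larvae. The strain was OP18, which carries the integrated transgene wgIs18 for tagged lin-39 in a background mutant for unc-119 (allele ed3, chromosome III). Every worm in the study carried both alterations, and no second factor, stage or untagged strain was among the samples. A possible control experiment is named in the labels and is not analysed here. The whole animal was used, so strong occupancy in few cells and weak occupancy in many cannot be told apart. With 1 group of 2 libraries and members chosen with earlier results known, the comparisons are descriptions with no test.

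Mitochondria carry their own small genome and translate its few messages on a ribosome of bacterial descent. The RNA of that ribosome comes from the mitochondrial genome, while its proteins are encoded in the nucleus, made in the cytosol and imported. The products of this ribosome are mostly core subunits of the respiratory chain. In C. elegans, knockdown of some of these genes, mrps-5 among them, is known to lengthen life and to switch on the mitochondrial unfolded protein response.

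The deposited ce11 tables are a list of candidate regions for each replicate, a list called on both replicates together (the pooled list) and the authors' optimal list of reproducible peaks. Each candidate list held 30000 regions, a fixed length. Regions were ranked within a list by the peak caller's signal value, with rank 1 the strongest. Each gene was given its strongest region among those with a summit within 1000 bp of the 5′ end of one of its coding transcripts. The optimal list held 311 peaks, which were the first 311 regions of the pooled list.

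When a region counted for every gene within 1000 bp, mitochondrial ribosomal protein genes were reached about as often as coding genes in general. In the pooled list 35 of the 70 had a region in reach (50%, exact 95% binomial interval 37.8 to 62.2), against 51.4% of all coding genes. An optimal peak stood at 1 of the 70 (1.43%), mrps-7, against 0.986% of all coding genes. Among the strongest 5000 pooled regions 8 members had one (11.4%), against 11.1% of all coding genes. With summits within 500 bp, 20 members had a pooled region (28.6%), against 32.6%, and 4 one of the strongest 5000 (5.71%), against 6.5%. The shares were lower when a region counted only for the gene with the nearest 5′ end. Then 27 members had a pooled region (38.6%), against 46.5%, and 5 one of the strongest 5000 (7.14%), against 9.68%. The 35 ranks had a median of 12884, against 12519 for the 10271 coding genes with a region.

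**Figure D1:**
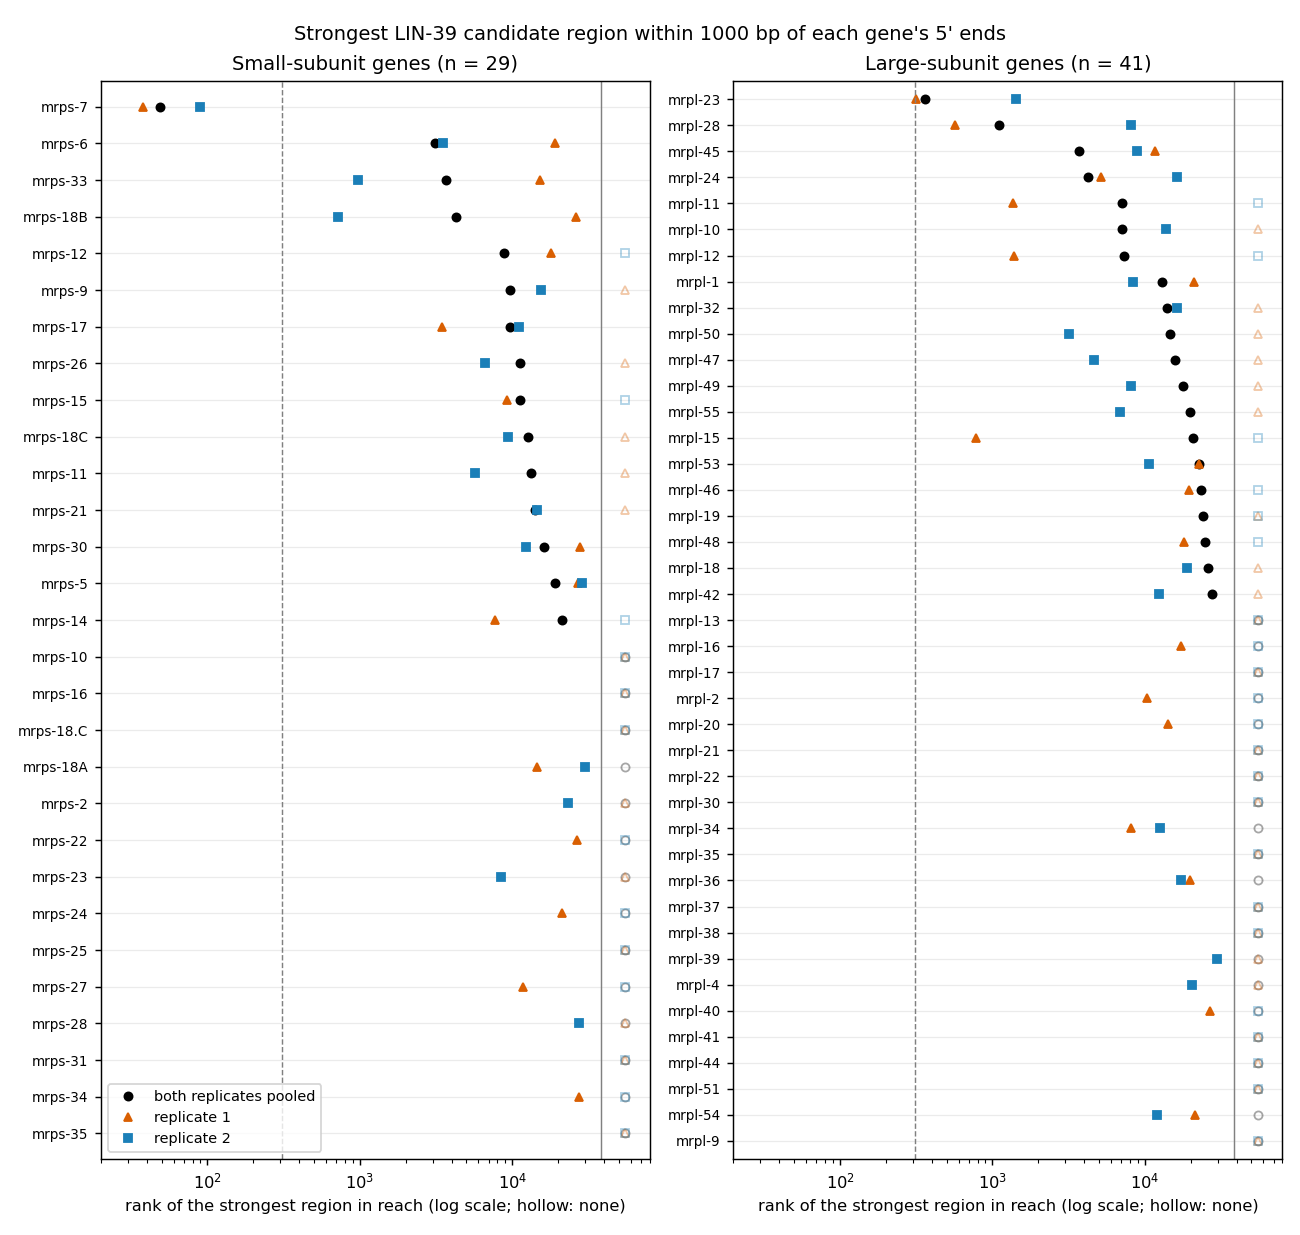
Rank of the strongest candidate region within 1000 bp of a 5′ end (log axis) for every mitochondrial ribosomal protein gene, in the pooled list (circles), replicate 1 (triangles) and replicate 2 (squares). Hollow symbols right of the solid line mark lists with no region in reach, and the dashed line marks rank 311, where the optimal list ends. The ranks of mrps-7 (49, 38 and 90) are the only ones left of that line.

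The counts over the members can be given in full. In the pooled list and both replicate lists, 13 members had a region (18.6%), against 28.8% of all coding genes. Another 21 had a region in the pooled list and in 1 replicate list, 8 of them in replicate 1 and 13 in replicate 2. The pooled list alone reached mrpl-19, at rank 24092. A further 17 (24.3%) had none in the pooled list but had one in a replicate list. Of these, 4 (mrpl-34, mrpl-36, mrpl-54 and mrps-18A) had one in both replicate lists. Regions in only some of the lists were not counted this way over all coding genes, so these splits are not read as a trait of the members.

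No region in any of the 3 lists lay within reach of 18 members (25.7%), against 27.3% of all coding genes. The large-subunit genes among them were mrpl-9, mrpl-13, mrpl-17, mrpl-21, mrpl-22, mrpl-30, mrpl-35, mrpl-37, mrpl-38, mrpl-41, mrpl-44 and mrpl-51. The small-subunit genes mrps-10, mrps-16, mrps-18.C, mrps-25, mrps-31 and mrps-35 had none either. The lists hold a fixed number of regions, so a gene without one may still have had reads.

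The small-subunit gene mrps-7 had the strongest region of all the members. Its product is the counterpart of bacterial S7, which binds ribosomal RNA in the head of the small subunit. The region, at chrIV:14767756-14768065, had rank 49 in the pooled list, 38 in replicate 1 and 90 in replicate 2. The replicate summits were 1 bp apart. The signal value was 46.7 in replicate 1, 30.3 in replicate 2 and 78.9 in the pooled list. The median pooled region had a signal value of 19.0 and the weakest optimal peak 42.4, so mrps-7 stood well above both. The summit lay in intergenic sequence 181 bp upstream of the 5′ end of mrps-7, which is on the minus strand and was the nearest coding gene.

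**Figure D2:**
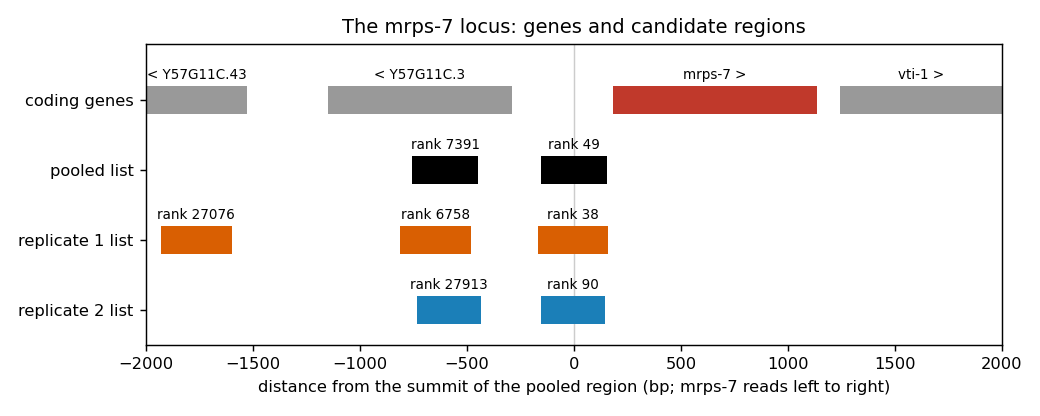
Coding genes (top row) and candidate regions of the pooled, replicate 1 and replicate 2 lists, by distance in bp from the summit of the pooled region, drawn so that mrps-7 reads left to right. The 3 lists place a region of rank 49, 38 and 90 between mrps-7 and the gene Y57G11C.3, which reads the other way. A second region inside Y57G11C.3 had ranks 7391, 6758 and 27913.

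That peak sits between 2 genes that read away from each other. The gene Y57G11C.3 starts at 14768201 on the plus strand, 290 bp from the summit. An assignment to mrps-7 rests on distance alone.

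The windows of 201 bp centred on 4 intergenic summits of the pooled list are shown because these are the regions between genes among the 20 strongest members, the top one included. The intergenic window of mrpl-12 is not printed because it reaches into a UTR. Each is from the reference genome (WBcel235, RefSeq) and is printed 5′ to 3′ on the strand of the member, here the minus strand for mrps-7 (chrIV:14767811-14768011), mrpl-28 (chrII:156045-156245), mrpl-45 (chrIII:1202269-1202469) and mrps-17 (chrIII:6431851-6432051). Capitals mark any match on either strand to TGATNNAT (the Hox with Pbx consensus), TGATAA (the GATA type), GAGAGA or the word GCAAACACC.

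mrps-7: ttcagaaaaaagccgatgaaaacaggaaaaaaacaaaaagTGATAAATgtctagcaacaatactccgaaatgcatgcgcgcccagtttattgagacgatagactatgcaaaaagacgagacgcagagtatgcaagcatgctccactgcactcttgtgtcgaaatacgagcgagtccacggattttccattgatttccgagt
mrpl-28: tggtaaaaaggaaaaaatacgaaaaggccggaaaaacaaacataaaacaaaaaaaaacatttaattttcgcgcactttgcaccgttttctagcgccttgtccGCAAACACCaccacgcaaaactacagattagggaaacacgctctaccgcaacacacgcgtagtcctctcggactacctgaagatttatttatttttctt
mrpl-45: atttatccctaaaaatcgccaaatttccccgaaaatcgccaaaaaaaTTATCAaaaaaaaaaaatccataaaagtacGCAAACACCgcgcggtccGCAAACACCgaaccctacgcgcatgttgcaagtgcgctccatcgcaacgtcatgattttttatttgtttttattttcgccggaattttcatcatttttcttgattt
mrps-17: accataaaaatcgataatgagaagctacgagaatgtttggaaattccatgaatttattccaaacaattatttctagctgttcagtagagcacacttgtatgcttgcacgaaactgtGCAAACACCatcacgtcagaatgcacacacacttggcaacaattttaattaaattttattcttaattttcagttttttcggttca

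The mrps-7 window held TGATAAAT, which matches TGATNNAT and TGATAA at the same bases. It held neither GAGAGA nor GCAAACACC. The other 3 windows each held GCAAACACC, a word that was picked out only after the windows had been read, so its shares are a description. Within 100 bp of the summit it was at 3 of the 35 member regions (8.57%). These are the same 3 windows it was picked from, so finding it there was fixed by that choice. The word was at 0.3% of all 30000 pooled regions. That background takes every pooled region, near a coding 5′ end or not, so it is not like the member regions. No share over the best regions of coding genes, the background of the other words below, is given for it. In promoters, taken as 250 bases before to 50 after the gene's outermost 5′ end, it was at 6 of 70 members (8.57%), against 1.06% of all coding genes and 0 of 81 cytosolic ribosomal protein genes. Those members were mrps-15, mrps-16, mrps-17, mrps-18A, mrps-28 and mrpl-28, of which 3 had a pooled region in reach. At mrps-17 and mrpl-28 the promoters include the copies in the printed windows, so the promoter count is not independent of them.

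For the other words the shares at member regions were between 5.71% and 34.3%. GAGAGA, the core of the binding word of GAGA factors in flies, was within 100 bp of 2 of 35 member summits (5.71%, exact 95% binomial interval 0.7 to 19.2), against 13.4% of the 9175 distinct best regions of all coding genes. In replicate 1 alone the share was 12.5% (4 of 32 distinct member regions, with 1 shared by mrpl-1 and mrps-24), against 12.4%. In replicate 2 alone it was 5.71%, against 14.2%, so the lower share was not seen in replicate 1. TGATNNAT was at 4 member summits (11.4%), against 16.8%, and TGATAA at 8 (22.9%), against 19.4%. TTTCAG, which matches the acceptor of trans-splicing in this species, was at 12 (34.3%), against 34.2%. In promoters TTTCAG was at 47 of 70 members (67.1%), against 70.4% of cytosolic ribosomal protein genes and 51.7% of all coding genes. All words were searched on both strands.

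After mrps-7 the next member by rank was mrpl-23, for the counterpart of L23 at the mouth of the peptide exit tunnel. Its region had rank 362 in the pooled list, 315 in replicate 1 and 1434 in replicate 2, so it lay just outside the optimal list, with a signal value of 40.5. The summits of the replicates were 24 bp apart. The summit stood 952 bp upstream of the 5′ end of mrpl-23, inside an annotated non-coding RNA, T08B2.14, and a pseudogene. The coding gene fars-1 ends 96 bp before mrpl-23 on the same strand, and its span covers the summit. These 2 genes, mrps-7 and mrpl-23, were the members among the strongest 5000 regions of both replicates (2.86%), against 3.08% of all coding genes. They were also the members in the strongest 2000 of both, against 1.25% of all coding genes.

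For mrpl-28, the counterpart of bacterial L28, the pooled region had rank 1102 and the replicate ranks were 570 and 8162. The summit was intergenic, 136 bp upstream of its 5′ end. With mrps-7 and mrpl-23 it made up the 3 members in the strongest 2000 pooled regions (4.29%), against 4.74% of all coding genes.

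The other 5 members in the strongest 5000 had pooled ranks between 3133 and 4276. The regions of mrps-6, mrps-33 and mrpl-45 lay nearer to the 5′ end of another gene (R12E2.11, F21D5.6 and Y119D3B.12) than to their own. For mrps-6, the counterpart of bacterial S6, the ranks were 3133 in the pooled list, 19219 in replicate 1 and 3497 in replicate 2. For mrpl-45 they were 3688, 11576 and 8833 in the same order of lists, with replicate summits 2 bp apart. MRPL-45 belongs to a family known in mammals to sit near the exit tunnel and the inner membrane. The gene mrpl-24, for the counterpart of bacterial L24, had ranks 4227, 5121 and 16317, and its summit lay in its own intron, 367 bp from its 5′ end. The summit at mrps-18B, 1 of the genes for counterparts of bacterial S18, lay in its own coding sequence, 910 bp downstream of its 5′ end.

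Genes for the flexible stalk of the large subunit, which receives translation factors, each had a region in the pooled list and in 1 replicate list. They were grouped by function after their ranks were seen, and this pattern was not counted over all coding genes. The stalk gene mrpl-12 had pooled rank 7267 and rank 1385 in replicate 1, with none in replicate 2, and its summit lay 43 bp from the 5′ end of Y39A1A.22. The stalk-base gene mrpl-11 had ranks 7073 and 1369 in the same lists, again with none in replicate 2. The summit at mrpl-11 lay in its own 3′ UTR, 860 bp downstream of its 5′ end. The gene mrpl-10, whose product anchors the stalk, had pooled rank 7128 and rank 13804 in replicate 2, with none in replicate 1. Its summit lay in an intron of clec-142, 545 bp from the 5′ end of clec-142 and 708 bp from that of mrpl-10. For mrps-12, whose bacterial counterpart S12 lines the decoding centre, the pooled rank was 8848 and the replicate 1 rank 18048.

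The remaining genes among the 20 strongest members had pooled ranks from 9627 to 13936. They were mrps-9, mrps-17, mrps-26, mrps-15, mrps-18C, mrpl-1, mrps-11 and mrpl-32. Of these, mrps-17 had a summit 153 bp upstream and ranks 3448 and 11126 in replicates 1 and 2, at summits 1034 bp apart. The product of mrpl-1 is the counterpart of L1, at the side where transfer RNA leaves, and its summit was 65 bp downstream of the nearer of its 2 annotated 5′ ends. The gene mrps-5, picked for its known role after its values were seen, was not among the 20 strongest members. Its ranks were 19146 in the pooled list, 27088 in replicate 1 and 28878 in replicate 2.

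**Figure D3:**
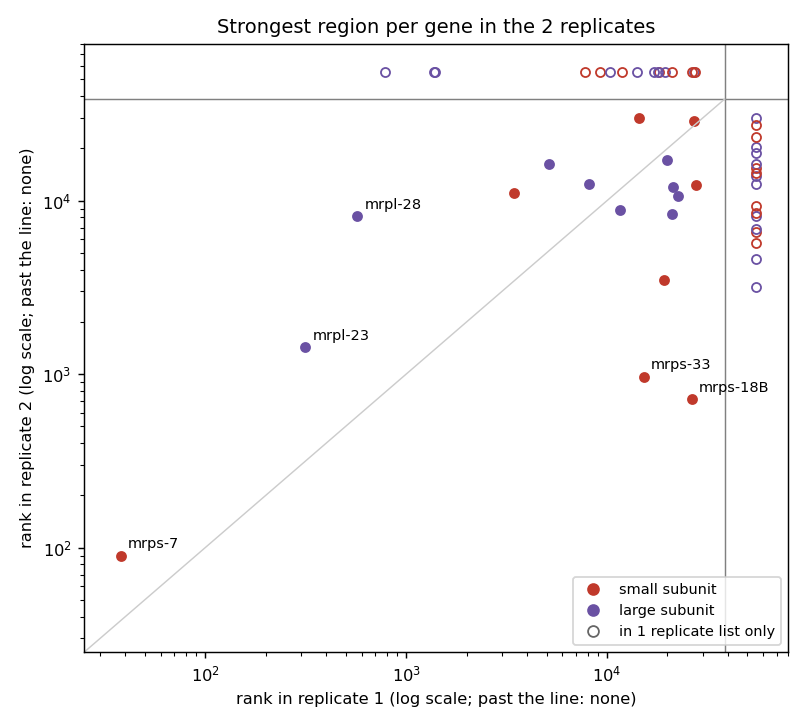
Rank of each gene's strongest region in replicate 1 (x axis) and replicate 2 (y axis), both logarithmic, with genes present in 1 replicate list only drawn hollow past the lines. Filled points are the 17 genes in both lists, and mrps-7 stands apart at ranks 38 and 90. The ranks of mrps-18B (26414 and 715) and mrps-33 (15271 and 968) lie far from the diagonal.

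The replicates seldom gave the same place. In the replicate 1 list 33 members had a region (47.1%), against 51.1% of all coding genes. In the replicate 2 list 35 had one (50%), against 51.6%. Both lists held a region for 17 members (24.3%), against 32% of all coding genes. The 2 summits were within 150 bp of each other for 5 of these 17 (29.4%), against 37.6% of coding genes with a region in both. Ranks of the 17 had a Spearman rho of 0.28 across members, which share the same 2 libraries, against 0.18 across 6390 coding genes.

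By the ratio of the 2 ranks, the replicates differed most at mrps-18B, mrps-33, mrpl-28, mrps-6 and mrpl-23. At mrps-18B the ranks were 26414 and 715, and the 2 summits were 1844 bp apart. At mrps-33 they were 15271 and 968, with summits 969 bp apart. For mrps-6 the ranks were 19219 and 3497, and the summits were 117 bp apart.

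Of the 35 pooled regions, 12 overlapped a region of both replicate lists (34.3%), 21 a region of 1 list (60%) and 2 none (5.71%). The shares over all coding genes were 38.7%, 55% and 6.38%. Each replicate had 7 members in its strongest 5000 (10% each), against 11.3% of all coding genes in replicate 1 and 10.8% in replicate 2. The members differed between the lists, and 6 members (8.57%, not counted over all coding genes) reached the strongest 5000 of a replicate without doing so in the pooled list. They were mrpl-11, mrpl-12, mrpl-15, mrpl-47, mrpl-50 and mrps-17, and the strongest of these was mrpl-15, at rank 781 in replicate 1, rank 20645 in the pooled list and with no region in replicate 2.

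**Figure D4:**
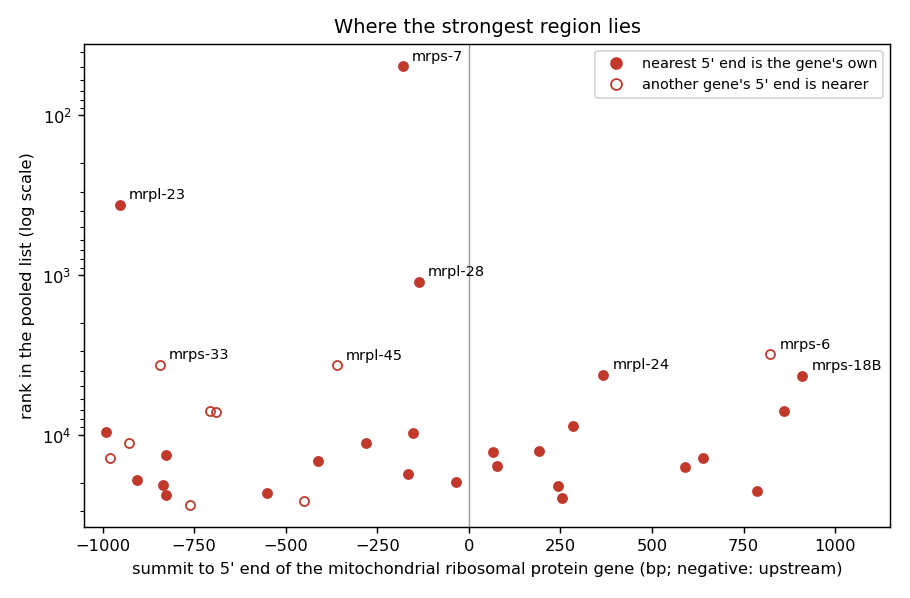
Signed distance in bp from the 5′ end of each mitochondrial ribosomal protein gene to the summit of its strongest pooled region (x axis, negative upstream) against the rank of that region (log y axis, strongest at the top). Hollow points mark the 9 summits that lie nearer to the 5′ end of another gene. Summits are spread over the whole window, with mrps-7 and mrpl-28 the strongest within 200 bp of the start.

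The summits were not gathered at the start of the genes. Their median distance from the member's 5′ end was 590 bp, against 451 bp over all coding genes with a region, and 8 of 35 were within 200 bp (22.9%), against 23.6%. Upstream summits made up 22 of 35 (62.9%), against 51.8%. The nearest coding 5′ end was the member's own for 26 of 35 (74.3%), against 88% over all coding genes. By annotation 10 of the 35 summits were intergenic (28.6%), against 33.7% of the best regions of all coding genes. Another 10 lay in introns (28.6%, against 26.7%) and 10 in coding exons (28.6%, against 30.1%). In 3′ UTRs there were 4 (11.4%), against 3.39%, and 1 lay in a non-coding RNA (2.86%), against 2.62%.

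The genes themselves are laid out unlike the average gene. An operon-like place, with the 5′ end within 500 bp downstream of the end of a coding gene on the same strand, was held by 27 members (38.6%), against 18.1% of all coding genes. A divergent place, where the nearest other 5′ end within 1000 bp belongs to a gene upstream on the other strand, was held by another 27 (38.6%), against 17.5%. In C. elegans, genes inside an operon are transcribed from the promoter of the first gene, so the 5′ end used here need not be near the promoter. A pooled region was in reach of 17 operon-like members (63%), 10 divergent members (37%) and 8 of the 16 others (50%). The same shares over all coding genes were 50.1%, 47.7% and 52.8%. In the strongest 5000 there were 3 operon-like members (11.1%), against 10.2% of operon-like coding genes. Divergent members numbered 4 (14.8%), against 11%, and the others 1 (6.25%), against 11.4%.

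Some members adjoin each other or other mitochondrial genes. The start of mrpl-4 is 106 bp past the end of mrps-2, and neither had a pooled region. On chromosome IV, mrpl-1 and mrps-24 lie on opposite strands, and both were given the same replicate 1 region, of rank 21061. The start of mrps-22 is 106 bp past the end of dap-3, also a small-subunit gene, and mrps-22 had no pooled region either. Back to back with mrps-15 lies asg-1, which encodes a subunit of ATP synthase. The summit given to mrps-15 lay 603 bp from the 5′ end of asg-1 and 927 bp from that of mrps-15. The cytosolic ribosomal protein gene rpl-28 reads away from mrpl-49, whose pooled region had rank 17790.

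No member lies on X, which carries 13.7% of coding genes. Chromosome III carries 22 members (31.4%), against 13.2% of coding genes. Regions were more frequent at coding genes of X, where 59.2% had one in the pooled list. Over autosomal coding genes alone, 50.2% had a pooled region, 10.5% one of the strongest 5000 and 0.963% an optimal peak.

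The subunits, split by symbol, are given side by side. A pooled region was in reach of 15 of 29 small-subunit genes (51.7%) and 20 of 41 large-subunit genes (48.8%). Each subunit had 4 members in the strongest 5000. The median pooled rank was 11295 for the small subunit and 15220 for the large. The order of the medians was turned in replicate 1, at 18048 for the small subunit and 12849 for the large, and in replicate 2 they were 10240 and 11958.

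Set beside the ribosomal proteins of the cytosol, the mitochondrial set had fewer strong regions. An optimal peak was in reach of 1 of 70 mitochondrial genes and 15 of 81 cytosolic genes (1.43% and 18.5%). The strongest 5000 pooled regions reached 8 mitochondrial and 28 cytosolic genes (11.4% and 34.6%), and the median pooled rank was 12884 and 3051. In the strongest 5000 of both replicates there were 2 mitochondrial and 18 cytosolic genes (2.86% and 22.2%). Over all coding genes the shares were 0.986% (optimal peak), 11.1% (strongest 5000) and 3.08% (both replicates). Cytosolic genes often shared their regions with nearer neighbours. The nearest coding 5′ end was the gene's own for 31 of 52 (59.6%), against 74.3% for members and 88% over all coding genes. The strongest cytosolic genes were rpl-15 (rank 13), rpl-20 (rank 16) and rpl-35 (rank 27). The difference between the lists was seen in earlier results of these data and was not tested.

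**Figure D5:**
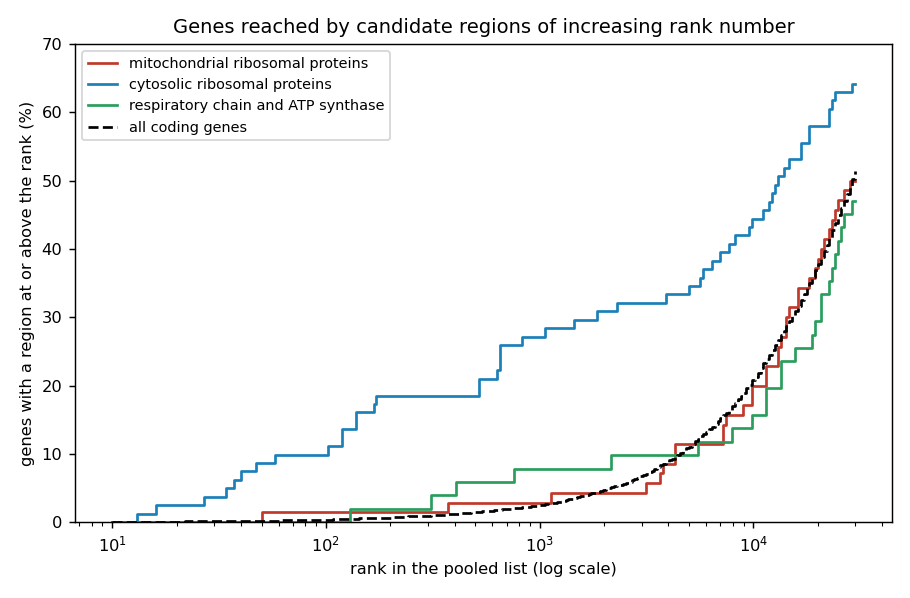
Share of genes (%) with a region in reach at or above each rank of the pooled list (log x axis) for mitochondrial ribosomal proteins (n = 70), cytosolic ribosomal proteins (n = 81), respiratory chain and ATP synthase genes (n = 51) and all coding genes (n = 19973, dashed). The curve for mitochondrial ribosomal proteins runs along that for all coding genes and ends at 50% beside 51.4%, while that for cytosolic ribosomal proteins is higher at the strong ranks.

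Other lists of mitochondrial genes can be read against the same shares of all coding genes, 51.4% with a pooled region, 11.1% with one of the strongest 5000 and 0.986% with an optimal peak. Of 51 genes of the respiratory chain and ATP synthase, 24 had a pooled region (47.1%), 5 one of the strongest 5000 (9.8%) and 2 an optimal peak (3.92%). The optimal peaks were those at cox-5B, for a subunit of cytochrome c oxidase (rank 129, replicate ranks 81 and 602), and atp-1, for the alpha subunit of ATP synthase (rank 305, replicate ranks 437 and 650). Their summits lay 11 and 18 bp from the 5′ ends. The third by rank was cox-5A, at 402, outside the optimal list.

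Among 13 genes of protein import into mitochondria, 7 had a pooled region (53.8%) and 0 an optimal peak. One of the strongest 5000 was at 3 in replicate 1 (23.1%), against 11.3% of all coding genes. In replicate 2 it was at 1 (7.69%), against 10.8%, and in both replicates at 0, against 3.08%. In the pooled list 3 had one of the strongest 5000 (23.1%). They were tomm-7 (rank 1326), tin-9.1 (rank 1862) and tomm-22 (rank 2839), with replicate 2 ranks of 17687, 11035 and 12980. These encode parts of the outer-membrane translocase or a chaperone of the space between the membranes. Among 20 genes of mitochondrial gene expression and quality control, 10 had a pooled region (50%) and 0 an optimal peak. One of the strongest 5000 was at 1 in replicate 1 (5%), at 5 in replicate 2 (25%) and at 3 in the pooled list (15%). The 3 in the pooled list were the chaperonin gene hsp-60 (rank 609), the DNA polymerase gene polg-1 (rank 1851, with none in replicate 1) and dve-1 (rank 4824). The gene dve-1 encodes a factor of the mitochondrial unfolded protein response.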

How the data were processed

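The authors deposited narrowPeak tables for ce11 and ce10, and only ce11 was used, because the gene models are on WBcel235 (ce11). Per the deposited text files, each replicate's candidate list came from that replicate's alignments, the pooled list from both, each with a further input named by accession only, and the optimal list from the 3 candidate lists. Which software aligned reads and called peaks, and at what IDR (irreproducible discovery rate) threshold, is not stated in these sources. The authors' deposited signal value (column 7) has no stated reference, so it was used for ranks within a list only. The deposited column 9 was treated as a score, since 19118 pooled values lay below 0. Regions were 310 bp wide in the pooled list, 330 bp in replicate 1 and 300 bp in replicate 2. Read depth is unknown, and intervals (exact Clopper-Pearson, 95%) cover the counting of genes or regions only.

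Genes and 29314 5′ ends came from Ensembl release 115, and no region ended past a chromosome end. A region could count for several genes. The members, comparison lists and words were chosen with earlier results of these data known. The rule for named genes was the members with an optimal peak, the 20 strongest, the 5 with the largest ratio between replicate ranks, up to 15 with no region (all 18 are named), nearer neighbours of these, and the 3 strongest of each comparison list. The symbols cco-1, cco-2 and gfm-2 found no gene model. Others named, such as mrps-5, mrpl-15, mrpl-19, mrpl-49 and neighbouring pairs, were picked after their values were seen. The search for the strongest region was tested on simulated data. Work used Python 3.11.15, NumPy 2.4.6 and SciPy 1.17.1.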

Additional observations from a re-analysis of the deposited data

How the results depend on the processing

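Of 54 recomputed values over the members, 44 stayed within bounds. The bounds were at most 1.5 times for counts and 1 SD of the replicate medians (2931) for the median rank. For the GAGAGA share the bound was the exact binomial interval, and the share still ran from 5.71% to 12.5%. The SD came from the single-replicate medians themselves, so their staying within it is no sign of stability. The optimal peak stayed at mrps-7 in all 10 alternatives. Members with a pooled region numbered 20 with summits within 500 bp (28.6%, all coding genes 32.6%) and 11 within 200 bp (15.7%, all coding genes 15.4%). With the nearest gene only, 27 members had a pooled region, which was within bounds, but the share was 38.6% against 46.5% of all coding genes. Members in the strongest 5000 numbered 4 within 500 bp (5.71%, all coding genes 6.5%) and 2 within 200 bp (2.86%, all coding genes 2.93%). They numbered 5 in the window from 1000 bp upstream to 200 bp downstream (7.14%, all coding genes 7.77%). When a region counted for the nearest gene only they numbered 5 (7.14%, all coding genes 9.68%). With the strongest 2000 in place of 5000 they numbered 3 (4.29%, all coding genes 4.74%), and with the strongest 10000 they numbered 14 (20%, all coding genes 20.9%). Members strong in both replicates numbered 1 within 500 bp (1.43%, all coding genes 1.55%) and 1 within 200 bp (1.43%, all coding genes 0.536%). These windows and thresholds hold fewer or more regions by construction.

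Using 1 replicate alone, 33 to 35 members had a region, 1 was among the 311 strongest in each, 7 were in the strongest 5000 in each, the median rank was 11126 to 15271 and GAGAGA was at 5.71% to 12.5% of member regions. The GAGAGA values over all coding genes were 14.2% without replicate 1 and 12.4% without replicate 2, so its lower share at member regions was lost without replicate 2. The autosomal background was chosen after seeing the data. No paired analysis was possible because there is 1 group. Depth is unknown, so a gene without a region is not shown to be unoccupied.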

Other observations

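A count of all words of 8 letters in the 70 promoters of mitochondrial ribosomal protein genes gave 333 words present in at least 7 of them. The word with the highest ratio to its share in all coding promoters was AGCATCTG, at 9 of 70 members (12.9%), against 0.811% of all coding promoters and 0 of 81 cytosolic ribosomal protein genes. The members were mrps-31, mrpl-54, mrps-28, mrps-18C, mrps-9, mrpl-24, mrpl-4, mrps-18A and mrpl-21. It was within 100 bp of the summit at 0 of the 35 member regions. As the top word of a search, on either strand, it has no test and is a description only.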
